A study of Mus musculus with 2 samples.

Results

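Expression of 10 genes was examined: the stress transcription factor ATF4 and its companion Ddit3, the ATF4 targets Trib3, Chac1 and Asns, the serine synthesis genes Phgdh, Psat1 and Psph, and the mitochondrial one-carbon genes Shmt2 and Mthfd2. They were chosen by name, with earlier results of these data known. All 10 were found by Ensembl ID among the 55487 gene IDs of the table. Each had at least 1 scaled CPM in both libraries and so belonged to the 13183 genes counted as tested, which reached 1 scaled CPM in at least 1 library. Scaled CPM is the usual depth-normalised count (CPM) after TMM adjustment of the library sizes.

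The cells carried either EVI1+18, a product of aberrant splicing of the zinc finger factor EVI1, or wild-type EVI1 (EVI1-WT). Both forms were HA-tagged (3xHA) and were stably overexpressed from the retroviral vector pMYs-IG in lineage-negative marrow cells taken from the femora, tibiae and pelvis of C57BL/6 mice. The age and number of the mice are not given in the labels. Infected cells were sorted for GFP after 3 days, plated at 10000 cells in the semi-solid colony medium MethoCult M3434 and harvested after about 3 weeks. RNA was sequenced from 1 culture of each form. No difference below therefore has a replicate check or a test, and each interval is a 95% counting interval that compares the libraries, not the 2 forms. Cells without either vector were not analysed here.

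ATF4 is a bZIP transcription factor whose mRNA is translated more efficiently when the initiation factor eIF2 is phosphorylated by 1 of several stress kinases, which sense amino acid shortage, unfolded proteins in the endoplasmic reticulum, haem shortage or mitochondrial stress, and viral RNA. It raises transcription of genes for amino acid synthesis and uptake, for the charging of transfer RNAs and for its own restraint. Serine is made from a glycolytic intermediate by PHGDH, PSAT1 and PSPH in turn, and SHMT2 then passes a carbon unit from serine to folate in mitochondria, where MTHFD2 oxidises it for later use in purine and thymidylate synthesis. Fast-growing blood cells, leukaemic ones included, are known to draw on this route.

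Totals were 20981903 counts for EVI1+18 and 20480447 for EVI1-WT. Mecom, the EVI1 locus, had 209 scaled CPM in EVI1+18 and 180 in EVI1-WT. That count does not tell reads of the vector from reads of the endogenous gene. Lineage markers differed widely between the cultures. The summed level of 19 erythroid markers was 13458 scaled CPM in EVI1+18 and 1464 in EVI1-WT. Of the 19, 18 were at least 2-fold higher in EVI1+18, where 5.05% of all tested genes were. Among 12 mast cell and basophil markers that were tested, 8 stood at least 2-fold lower in EVI1+18, beside 5.10% of all tested genes. By the same rule 2 stood higher, beside 5.05%. The whole list summed to 877 scaled CPM in EVI1+18 and 5855 in EVI1-WT. Kit, which marks progenitors and mast cells, was low in both, at 11.8 scaled CPM in EVI1+18 and 3.15 in EVI1-WT.

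The 10 genes leaned towards higher levels in EVI1+18. They were chosen with earlier results of these data known, so their counts beside all tested genes are a description and not independent support. A gene was counted as at least 2-fold higher when its whole counting interval lay above 2. By that rule 3 of the 10 genes, Trib3, Asns and Shmt2, were higher, where 5.05% of all tested genes were, and 0 were at least 2-fold lower, where 5.10% of all tested genes were. At 1.5-fold the count was 6 higher, adding Mthfd2, Ddit3 and Atf4, beside 8.29% of all tested genes, and 0 lower, beside 9.79%. For 9 of the 10 the interval lay wholly above 1, as it did for 33.4% of all tested genes. For 0 of the 10 it lay wholly below 1, as it did for 32.8% of all tested genes, and for Psph it included equality. Their median log2 ratio of EVI1+18 over EVI1-WT was 0.77, and that of all tested genes was 0.01. Summed over the 10 genes the level was 2480 scaled CPM in EVI1+18 and 1354 in EVI1-WT, a 1.83-fold ratio (1.80 to 1.86). In these bulk samples a different share of cells of a type and a different amount of RNA per cell cannot be told apart.

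**Figure D1:**
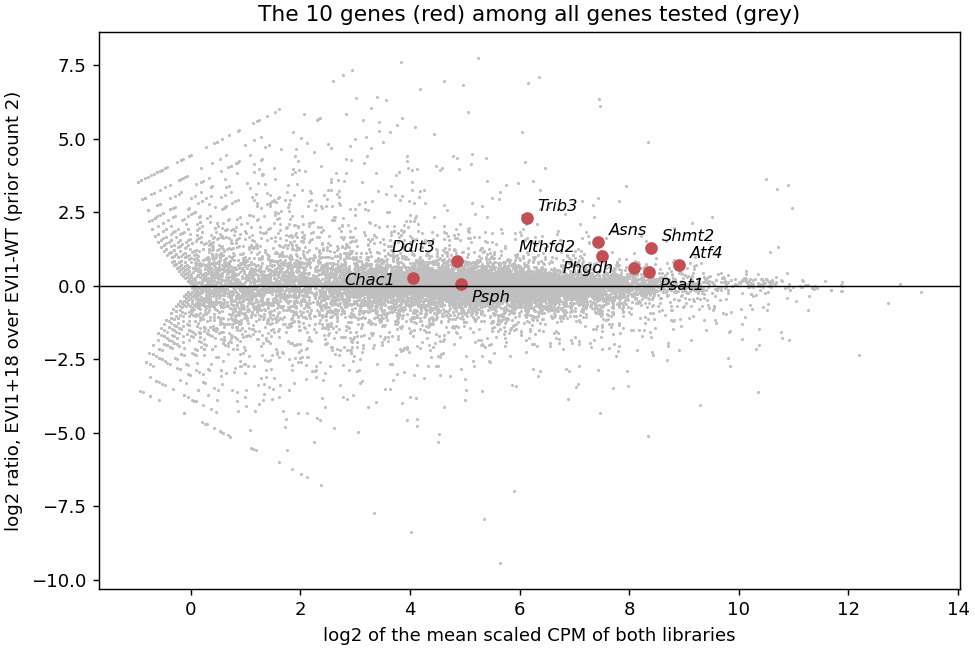
Log2 ratio of EVI1+18 over EVI1-WT (vertical axis, prior count of 2) against the log2 of the mean scaled CPM of both libraries (horizontal axis), with each grey point 1 of the 13183 tested genes and the 10 genes in red. All 10 lie above 0, from 0.07 for Psph to 2.31 for Trib3.

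**Figure D2:**
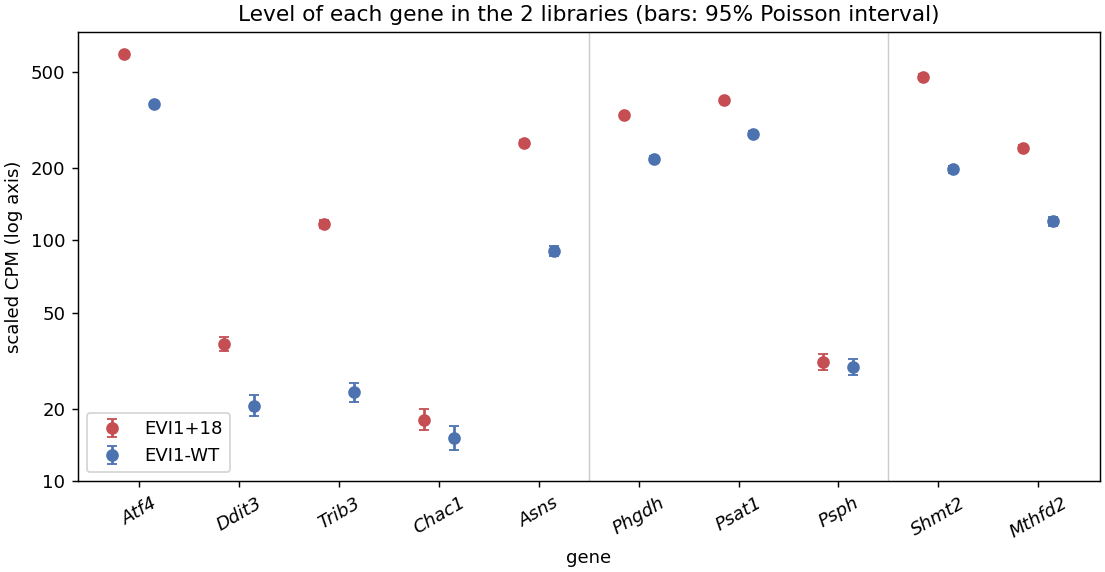
Scaled CPM (log axis) of each of the 10 genes in the EVI1+18 library (red, left of each pair) and the EVI1-WT library (blue), with 95% Poisson intervals as bars and grey lines between the regulators with Asns, the serine synthesis genes and the mitochondrial genes. The intervals of the 2 libraries overlap for Psph and for Chac1 and are apart for the other genes.

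Levels of different genes were compared per kilobase of merged exon. Atf4 stood first in both libraries, at 251 scaled CPM per kilobase in EVI1+18 and 155 in EVI1-WT, and Psph last, at 7.21 in EVI1+18 and 6.89 in EVI1-WT. In EVI1+18 the order between them was Shmt2, Phgdh, Asns, Psat1, Mthfd2, Trib3, Ddit3 and Chac1, and only Asns and Psat1 were neighbours whose counting intervals overlapped. In EVI1-WT the order was Phgdh, Psat1, Shmt2, Mthfd2, Asns, Ddit3, Trib3 and Chac1. There the intervals of 4 neighbouring pairs overlapped, namely Psat1 with Shmt2, Mthfd2 with Asns, Ddit3 with Trib3, and Trib3 with Chac1. By these counts Shmt2 stood above Phgdh and Psat1 in EVI1+18 and below Phgdh in EVI1-WT. The place of Phgdh is uncertain, since much of its transcript sequence also occurs in other annotated genes, as given below. If reads with several matches were left out, its level is understated. Its order against Shmt2 in EVI1+18 is therefore not settled. The order also rests on the merged lengths, which join the exons of all annotated transcripts, and other lengths were not tried. Before division Psph (4329 bases) stood above Chac1 (1637 bases). Psph had 31.2 scaled CPM in EVI1+18 and 29.8 in EVI1-WT, and Chac1 had 18.0 and 15.1.

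Atf4 itself (ENSMUSG00000042406; GRCm38 chromosome 15, 80255184 to 80257541, plus strand) had 12696 counts (592 scaled CPM) in EVI1+18 and 7333 (366 scaled CPM) in EVI1-WT. It was 1.62-fold higher in EVI1+18 (1.57 to 1.66), and 11.5% of tested genes had a higher log2 ratio. The control of ATF4 lies largely in translation, which RNA counts do not measure. Ddit3 (chromosome 10, 127290774 to 127296288, plus strand), which encodes the pro-apoptotic bZIP factor CHOP, had 797 counts (37.1 scaled CPM) in EVI1+18 and 413 (20.6 scaled CPM) in EVI1-WT. Its level was 1.80-fold higher in EVI1+18 (1.60 to 2.03), an interval that overlaps that of Atf4. The ratio of Ddit3 to Atf4 per kilobase was 0.0864 in EVI1+18 and 0.0775 in EVI1-WT. A second, short annotated gene with the symbol Ddit3 lies inside it and had 0 counts in both libraries, and 3.97% of the exon bases of Ddit3 overlap the methionyl-tRNA synthetase gene Mars on the other strand.

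Trib3 (ENSMUSG00000032715; chromosome 2, 152337422 to 152344032, minus strand) encodes a pseudokinase that binds ATF4 and restrains it. It had 2512 counts (117 scaled CPM) in EVI1+18 and 470 (23.5 scaled CPM) in EVI1-WT. Its ratio was the largest of the 10, at 4.99-fold (4.52 to 5.52), and 2.72% of tested genes had a higher log2 ratio. Set against Atf4 in the same library, the per-kilobase level of Trib3 was 0.220 of that of Atf4 in EVI1+18 and 0.0711 in EVI1-WT. Its relative Trib1 differed in the other direction, with 134 counts in EVI1+18 and 323 in EVI1-WT, a level 2.58-fold lower in EVI1+18 (2.10 to 3.18), and Trib2 had 0 counts in both libraries. A count of 0 allows up to 3 counts, or 0.140 scaled CPM in EVI1+18 and 0.150 in EVI1-WT.

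Chac1 (chromosome 2, 119351229 to 119354381, plus strand), an ATF4 target whose enzyme breaks down glutathione, was close to equal in the libraries. It had 387 counts (18.0 scaled CPM) in EVI1+18 and 302 (15.1 scaled CPM) in EVI1-WT, a 1.20-fold ratio (1.03 to 1.40). Of all tested genes, 27.9% had a higher log2 ratio than Chac1. Asns (ENSMUSG00000029752; chromosome 6, 7675169 to 7693254, minus strand) encodes asparagine synthetase and is a long-studied target of ATF4 under amino acid shortage. It had 5448 counts (254 scaled CPM) in EVI1+18 and 1805 (90.1 scaled CPM) in EVI1-WT, and was 2.82-fold higher in EVI1+18 (2.67 to 2.97). The ATF4 targets Trib3, Asns and Chac1 therefore ranged from 1.20-fold to 4.99-fold, with intervals that did not overlap.

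The promoters of the 10 genes were searched for the C/EBP-ATF response element, the site at which ATF4 binds with a C/EBP partner. The 3 stretches that hold it are shown, since they belong to the ATF4 targets just described. The letters searched were TGATGNAA, on both strands, from 250 bases before to 50 after each RefSeq start on GRCm38.p6. The element was present in 4.51% of the 27025 genes with a promoter window (3.97% of 32851 windows) and in 3 of the 10 genes (3 of 11 windows). Among tested genes with a window, it was present in 2.86% of 9695 genes (2.38% of 12319 windows). Of 13169 symbols of tested genes, 9726 were matched to a window. Each line gives the gene strand 5′ to 3′, with the match in capitals.
Asns: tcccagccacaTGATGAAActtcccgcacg
Chac1: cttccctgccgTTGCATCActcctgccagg
Trib3: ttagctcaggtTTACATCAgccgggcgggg
The Asns stretch lies at chr6:7693214-7693243 on the minus strand, with the match starting 23 bases before the RefSeq start and inside the longer GENCODE gene. That of Chac1 lies at chr2:119351038-119351067 on the plus strand, 193 bases before the start, and reads the element on the opposite strand. For Trib3 the stretch lies at chr2:152344028-152344057 on the minus strand, where the match, also on the opposite strand, begins at base 15 of the RefSeq transcript. The genes with a match held both the largest ratio of the 10 (Trib3) and the second smallest (Chac1). Windows of Atf4, Ddit3, Phgdh, Psat1, Psph, Shmt2 and Mthfd2 did not hold these letters, which says nothing of sites elsewhere. Of 28 other ATF4 targets listed, 23 had a promoter in the table, and 7 of these held the element. Promoters of the tRNA synthetases were found for 13 of 20 genes, of which 5 held it, and with so many of the list unmatched that count is not compared with the others. The other one-carbon genes (21 of 25 with a promoter) and the endoplasmic reticulum genes (14 of 16) held it in 0 cases. Where 2.86% of tested genes hold it, lists this short cannot show an absence.

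Serine synthesis genes were less far apart than Asns and Trib3. Phgdh (ENSMUSG00000053398; chromosome 3, 98313170 to 98339990, minus strand), which encodes the first enzyme of the route, had 7087 counts (330 scaled CPM) in EVI1+18 and 4335 (217 scaled CPM) in EVI1-WT. It missed the 1.5-fold rule only because its interval reached below 1.5, and its ratio was 1.53 (1.47 to 1.59). This value is uncertain, since 47.8% of the 50-base words of Phgdh transcripts also occur in 23 other annotated genes, and how reads with several matches were counted is not given in the sources used here. Those 23 genes together held 122 counts in EVI1+18 and 62 in EVI1-WT.

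Psat1 (chromosome 19, 15904678 to 15947337, minus strand), which encodes the aminotransferase of the second step, had 8189 counts (382 scaled CPM) in EVI1+18 and 5537 (277 scaled CPM) in EVI1-WT. It was 1.38-fold higher in EVI1+18 (1.33 to 1.43). Psph (chromosome 5, 129765558 to 129787449, minus strand), the phosphatase of the last step, had 670 counts (31.2 scaled CPM) in EVI1+18 and 597 (29.8 scaled CPM) in EVI1-WT. Its ratio of 1.05 (0.937 to 1.17) included equality. The chaperonin gene Cct6a, on the other strand, covers 10.4% of the exon bases of Psph and had 6875 counts in EVI1+18 and 6134 in EVI1-WT, and without a stated strand setting reads of the 2 genes cannot be told apart there. Over the 3 steps the summed level was 743 scaled CPM in EVI1+18 and 523 in EVI1-WT, a 1.42-fold ratio (1.39 to 1.46).

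The mitochondrial pair was further apart than the serine synthesis genes. Shmt2 (ENSMUSG00000025403; chromosome 10, 127517123 to 127522444, minus strand) had 10238 counts (477 scaled CPM) in EVI1+18 and 3934 (196 scaled CPM) in EVI1-WT, and was 2.43-fold higher in EVI1+18 (2.34 to 2.52). Mthfd2 (ENSMUSG00000005667; chromosome 6, 83305691 to 83325908, minus strand) had 5195 counts (242 scaled CPM) in EVI1+18 and 2398 (120 scaled CPM) in EVI1-WT. It was 2.02-fold higher (1.93 to 2.12), an interval that spans the 2-fold line. Summed over both, the level was 719 scaled CPM in EVI1+18 and 316 in EVI1-WT, a 2.27-fold ratio (2.21 to 2.34) that lies wholly above that of the 3 serine synthesis genes.

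**Figure D3:**
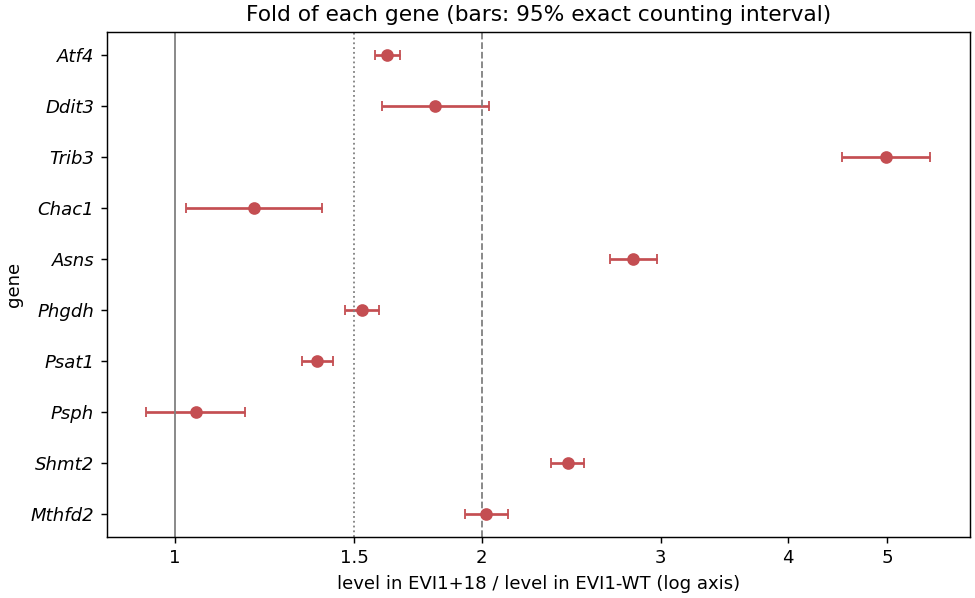
Level in EVI1+18 divided by level in EVI1-WT (log axis) for each of the 10 genes, with bars for the 95% exact counting interval and vertical lines at 1 (solid), 1.5 (dotted) and 2 (dashed). Trib3, Asns and Shmt2 lie wholly beyond the dashed line, Mthfd2 and Ddit3 cross it, and Psph crosses the line of equality.

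Other genes of the one-carbon cycle were mixed. Of 25 listed, 22 were tested. In EVI1+18, 2 of these passed the 2-fold rule upwards and 4 the 1.5-fold rule, 0 passed either rule downwards, and the median log2 ratio was 0.15. Among all tested genes 5.05% passed the 2-fold rule upwards and 8.29% the 1.5-fold rule, and 5.10% and 9.79% passed them downwards. Aldh1l2, a mitochondrial enzyme that releases the carbon unit as carbon dioxide, had 347 counts in EVI1+18 and 26 in EVI1-WT and was 12.5-fold higher (8.36 to 19.3). Mthfd1l, which frees formate in mitochondria after the MTHFD2 step, had 2901 counts in EVI1+18 and 1644 in EVI1-WT, a 1.65-fold ratio (1.55 to 1.75). Sfxn1, the mitochondrial serine carrier, was 1.15-fold lower in EVI1+18 (1.10 to 1.20).

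Mitochondrial and cytosolic enzymes of the folate route, set side by side after their values were seen, differed in their ratios. The cytosolic partner of Shmt2, Shmt1, had 1011 counts in EVI1+18 and 948 in EVI1-WT, a ratio of 0.995 (0.910 to 1.09) that included equality. Per kilobase, Shmt2 stood at 12.7 times the level of Shmt1 in EVI1+18 and at 5.18 times in EVI1-WT. Mthfd1, the cytosolic enzyme that covers 3 steps of the route in 1 protein, was 1.11-fold higher (1.05 to 1.18), and Mthfd2 stood at 2.51 times its per-kilobase level in EVI1+18 and 1.38 times in EVI1-WT. Summed counts of the 5 mitochondrial genes were 2.15-fold higher in EVI1+18 (2.10 to 2.21), and those of the 3 cytosolic genes 1.09-fold higher (1.04 to 1.14). The mitochondrial sum was led by Shmt2 and Mthfd2. They held 719 of 875 scaled CPM in EVI1+18 and 316 of 407 in EVI1-WT. Neither group was uniform. Mthfd2l, the mitochondrial relative of Mthfd2, was 1.58-fold lower (1.22 to 2.06) at 99 counts in EVI1+18, against 146 in EVI1-WT, and the cytosolic Aldh1l1 was 3.36-fold higher (1.87 to 6.41) at 54 counts in EVI1+18, against 15 in EVI1-WT.

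**Figure D4:**
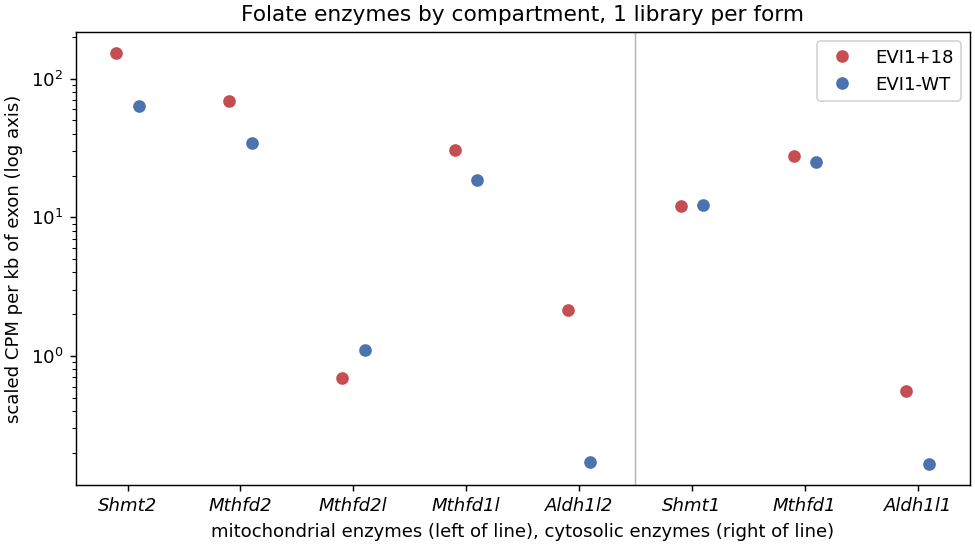
Scaled CPM per kilobase of merged exon (log axis) for 5 mitochondrial (left of the line) and 3 cytosolic (right) folate enzymes in the EVI1+18 library (red) and the EVI1-WT library (blue), 1 library per form and no error bars. Shmt2, Mthfd2, Mthfd1l and Aldh1l2 are higher in EVI1+18, Mthfd2l is lower, Shmt1 and Mthfd1 lie close together, and Aldh1l1 is low in both.

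The genes that act upstream of ATF4 went both ways, much as all tested genes did. Of 18 genes for eIF2 kinases, their phosphatases and partners, 6 had an interval wholly above 1 and 6 wholly below 1. Among all tested genes the shares were 33.4% and 32.8%. The median log2 ratio of the 18 was 0.03. By the rule that the whole interval lies past 1.5-fold, 0 passed in either direction, beside 8.29% of all tested genes upwards and 9.79% downwards. Among the 4 kinases, the haem-regulated Eif2ak1 was 1.18-fold higher in EVI1+18 (1.08 to 1.28), at 55.9 scaled CPM in EVI1+18 and 47.5 in EVI1-WT. Eif2ak3, which encodes the endoplasmic reticulum kinase PERK, was 1.64-fold lower (1.48 to 1.82), with 27.5 scaled CPM in EVI1+18 and 45.1 in EVI1-WT. The RNA sensor Eif2ak2 and the amino acid sensor Eif2ak4 were 1.13-fold and 1.14-fold lower. Ppp1r15a, an ATF4-pathway gene whose product restores eIF2, was 1.49-fold higher (1.40 to 1.59). Phosphorylation of eIF2 was not measured.

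Genes listed as partners or followers of ATF4, mostly transcription factors, differed more. Of 11 tested, 3 passed the 2-fold rule upwards and 1, the pseudokinase gene Trib1 given above, passed it downwards. The shares of all tested genes were 5.05% and 5.10%. Atf5, a close relative of ATF4, had 1877 counts in EVI1+18 and 227 in EVI1-WT, a 7.72-fold ratio (6.72 to 8.90). Atf3 was 3.55-fold higher (3.05 to 4.14) and the stress factor Nupr1 2.52-fold higher (2.11 to 3.03). Cebpg, a C/EBP partner of ATF4, was 1.65-fold higher (1.53 to 1.79), while Cebpb was 1.13-fold lower. Their median log2 ratio was 0.31, or 0.07 among genes with at least 5 scaled CPM.

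Other known ATF4 targets split in direction. All 28 listed were tested, of which 7 passed the 2-fold rule upwards and 2 downwards, while 10 passed the 1.5-fold rule upwards and 3 downwards. Of all tested genes, 5.05% and 5.10% passed the 2-fold rule upwards and downwards, and 8.29% and 9.79% the 1.5-fold rule. The interval lay wholly above 1 for 16 of the 28 and wholly below 1 for 10, beside 33.4% and 32.8% of all tested genes. The median log2 ratio of the 28 was 0.39, or 0.17 among genes with at least 5 scaled CPM. Their summed level was lower in EVI1+18, at 4778 scaled CPM against 5561 in EVI1-WT. Pck2, a mitochondrial enzyme that makes phosphoenolpyruvate, had 4870 counts in EVI1+18 and 1653 in EVI1-WT and was 2.75-fold higher (2.60 to 2.91). The proline synthesis gene Pycr1 was 3.56-fold higher (2.88 to 4.42) and the stress cytokine Gdf15 4.12-fold higher (3.31 to 5.16). Among amino acid transporters, the glycine carrier Slc6a9 was 5.20-fold higher (4.25 to 6.42) and the neutral amino acid carrier Slc1a4, which takes up serine, 4.13-fold higher (3.53 to 4.86). Slc7a3 had the largest ratio of the list, 34.5-fold (9.23 to 290.5), but on only 74 counts in EVI1+18 and 2 in EVI1-WT. The cystine carrier Slc7a11 was 2.03-fold lower (1.92 to 2.15), with 83.8 scaled CPM in EVI1+18 and 170 in EVI1-WT, and Slc7a5 was 1.35-fold lower. The 2 targets at least 2-fold lower were the oxidase gene Ero1l, 3.00-fold lower (2.93 to 3.07), and Fam129a, 3.07-fold lower (2.93 to 3.22).

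Genes for cytosolic tRNA synthetases, which load amino acids onto transfer RNA, were mostly higher in EVI1+18 by less than 2-fold. The 1.5-fold rule was passed upwards by 7 of 20 and downwards by 0, the interval lay wholly above 1 for 18, and the median log2 ratio was 0.58. Among all tested genes 8.29% passed that rule upwards and 9.79% downwards, and 33.4% had an interval wholly above 1. Nars (asparagine), at 1.75-fold (1.70 to 1.80), is also listed among the other ATF4 targets and is counted in both lists. Wars (tryptophan) had 3929 counts in EVI1+18 and 1804 in EVI1-WT and was 2.03-fold higher (1.92 to 2.15). Iars (isoleucine) was 1.89-fold higher (1.81 to 1.97) and Cars (cysteine) 1.81-fold higher (1.70 to 1.94). Farsa, a subunit of the phenylalanine enzyme, was 1.14-fold lower, and Qars (glutamine) had a ratio of 0.991 that included equality.

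Chaperone and quality-control genes of the endoplasmic reticulum lay on the other side. Among all tested genes 5.10% passed the 2-fold rule downwards and 5.05% upwards, and 9.79% passed the 1.5-fold rule downwards. In this list the 2-fold rule was passed downwards by 3 of 16 and upwards by 0. The 1.5-fold rule was passed downwards by 11, and the median log2 ratio was -0.82. Under each of the other 4 scalings the 2-fold count was 2, without Sdf2l1, whose lower bound fell short of 2-fold there (1.91 under library totals). The disulphide isomerase Pdia4 had 5237 counts in EVI1+18 and 17652 in EVI1-WT and was 3.61-fold lower (3.50 to 3.73). Edem1, which marks misfolded proteins for disposal, was 2.41-fold lower (2.33 to 2.51). The main chaperone gene Hspa5 was 1.86-fold lower (1.82 to 1.90), with 651 scaled CPM in EVI1+18 and 1208 in EVI1-WT. Dnajb9 alone had an interval wholly above 1, at 1.12-fold (1.004 to 1.24), and Ern1, the sensor IRE1, included equality.

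**Figure D5:**
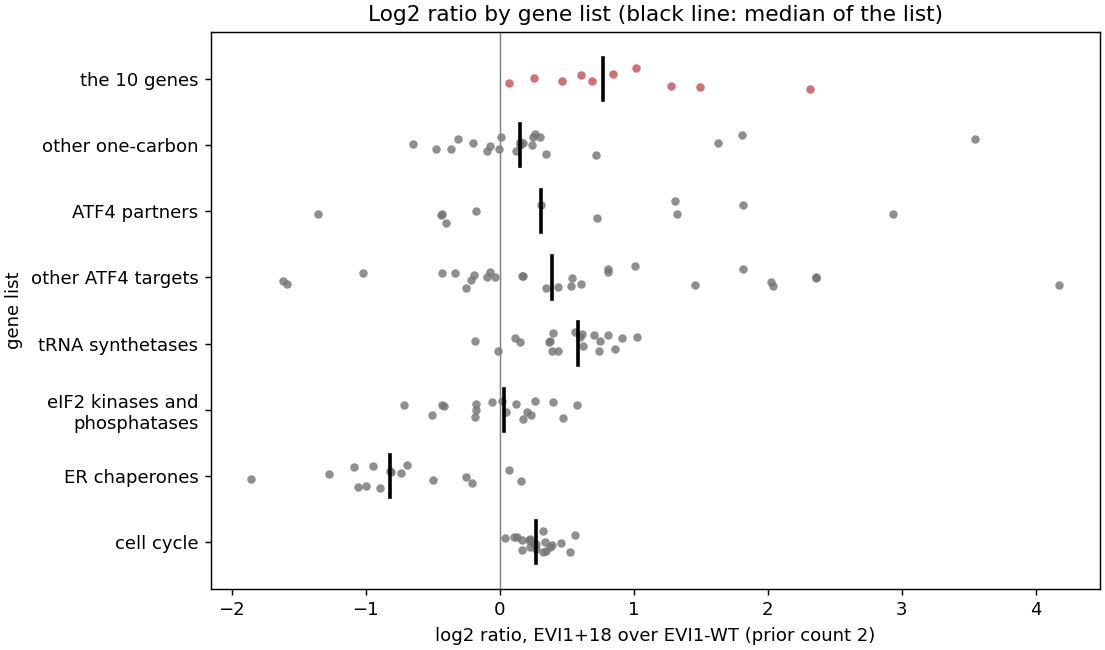
Log2 ratio of EVI1+18 over EVI1-WT (horizontal axis, prior count of 2) for the tested genes of 8 lists, 1 point per gene with random vertical spread and the median of each list as a black line. The 10 genes (red) have a median of 0.77, the tRNA synthetases 0.58, the eIF2 kinases and phosphatases 0.03 and the endoplasmic reticulum chaperones -0.82.

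The same libraries differed in lineage and proliferation markers, and the part of these in the ratios above was not tested. Median log2 ratios were 3.65 over 19 erythroid, 3.57 over 11 megakaryocyte and 1.54 over 11 macrophage markers, against -2.32 over 12 mast cell and basophil, -1.48 over 15 neutrophil and -2.01 over 6 eosinophil markers. Summed over each whole list, megakaryocyte markers stood at 1877 scaled CPM in EVI1+18 and 825 in EVI1-WT, and macrophage markers at 1904 in EVI1+18 and 1330 in EVI1-WT. The macrophage sum was led by Gpnmb, at 1214 scaled CPM in EVI1+18 and 242 in EVI1-WT, and the other markers of that list, a sum added after seeing the data, came to 690.5 in EVI1+18 and 1088 in EVI1-WT. Of those 10 other markers tested, 6 had an interval wholly above 1 and 4 wholly below 1, beside 33.4% and 32.8% of all tested genes. Neutrophil markers summed to 2438 scaled CPM in EVI1+18 and 5885 in EVI1-WT, and eosinophil markers to 176 in EVI1+18 and 866 in EVI1-WT. Tpsab1 and Mrgprb1 of mast cells and C1qa of macrophages had 0 counts in both libraries. Of 20 cell cycle genes, 0 had the whole interval past 1.5-fold in either direction, beside 8.29% of all tested genes upwards and 9.79% downwards. An interval above 1 was found for 19 of the 20, beside 33.4%, with a median log2 ratio of 0.27. TMM scaling without the marker genes left the counts of the 10 genes at 3 (2-fold) and 6 (1.5-fold). It changed the scaling factor of EVI1+18 only from 1.0226 to 1.0224, so it does not address the part of cell types in the ratios.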

How the data were processed

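RNA sequencing counts came from 2 cultures, 1 per EVI1 form, each library assigned by the vector in its labels and each column by its name (0 columns unmapped). The authors deposited whole-number read counts per Ensembl gene with no scaling applied. The build was GRCm38, per the submitters' processing notes, which name the tools featureCounts and Subread, HISAT2 2.2.1, edgeR and SAMtools. Not given in the sources used here are tool settings, strandedness, annotation release and the handling of multi-mapped reads. Symbols, coordinates and merged exon lengths come from GENCODE M21 on GRCm38, which matched 55227 of 55487 IDs. The unmatched IDs held 0.0171% of the counts of EVI1+18 and 0.0126% of those of EVI1-WT. Of the IDs that carry the symbol Ddit3, the one with reads was taken.

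No test was run, because a single library per form leaves edgeR's quasi-likelihood model nothing to estimate spread from. edgeR 4.0.16 in R 4.3.3 gave the TMM scaling, and scipy 1.17.1 the 95% exact (Clopper-Pearson) intervals of ratios and Poisson intervals of levels. These and the floor of 3 counts cover counting error only, since reads were not tied to single molecules. Log2 ratios use a prior count of 2, and folds use none. The members and the 15 other gene lists were chosen with earlier results of these data known, so their direction is a description and not independent support. All 10 members are named, with up to 4 genes in each direction per list by the interval bound nearest to 1, the eIF2 kinases and the members' relatives. Not every gene this rule takes is given, and some of the one-carbon list are not reported here. Pck2, Pycr1, Cebpb, Cebpg, Sfxn1, Qars, Hspa5, Ern1, Cbs, Ptdss1, Tpsab1, Mrgprb1 and C1qa lie outside it and were chosen after their values were seen. Sequences are from RefSeq, GRCm38.p6, and all 10 members matched by symbol. Other scalings, filters, prior counts and interval levels were tried.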

Additional observations from a re-analysis of the deposited data

How the results depend on the processing

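The count of the 10 genes at least 2-fold higher in EVI1+18 was 3 under TMM, median-of-ratios (RLE) and upper-quartile scaling, TMM without marker genes, a filter at 5 scaled CPM, no filter and 99% intervals, and 4 when scaled by library totals, where the interval of Mthfd2 (2.01 to 2.22) passed 2. The count at 1.5-fold was 6 under the same settings and 7 with library totals, where Phgdh (1.54 to 1.66) joined. Counts of lower genes were 0 throughout. Their median log2 ratio ranged from 0.77 to 0.83. The interval of Psph included equality under each of the 5 scalings, and that of Chac1 lay above 1. Scaling by totals moved the median log2 ratio of all tested genes from 0.01 to 0.08. With it, the medians of the tRNA synthetases and the endoplasmic reticulum list were 0.65 and -0.75. No paired analysis was possible because each group holds 1 library, and for the same reason none could be left out. Each of the 10 genes had 302 counts or more in each library, and counting error still leaves Mthfd2 and Ddit3 on either side of 2-fold, Phgdh on either side of 1.5-fold and Psph on either side of equality, while Aldh1l2 and Aldh1l1 rest on 26 and 15 counts in EVI1-WT. What was not measured is the variation between cultures. The macrophage marker sum was 1.43 times as high in EVI1+18 as in EVI1-WT, and 0.635 times without Gpnmb, an alternative chosen after seeing the data.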

Other observations

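Serine has other fates than the folate route, and some of their genes also differed between the libraries. Cth, which encodes the enzyme that completes cysteine synthesis from serine, had 771 counts in EVI1+18 and 5 in EVI1-WT, a 144-fold ratio (61.4 to 444), while Cbs, the gene of the preceding step, had 1 count in EVI1+18 and 11 in EVI1-WT. Sdsl, a relative of serine dehydratase, was 2.63-fold higher (1.77 to 4.02) at 96 counts in EVI1+18, against 34 in EVI1-WT. Sptlc2, a subunit of the enzyme that joins serine to fatty acid for sphingolipids, was 1.40-fold lower (1.32 to 1.48), and Ptdss1, for phosphatidylserine, had a ratio of 0.997 that included equality. The 2-fold rule was passed upwards by 1 of 7 tested genes of this list and downwards by 0, beside 5.05% and 5.10% of all tested genes. The median log2 ratio of the 7 was 0.49, or 0.24 among genes with at least 5 scaled CPM.

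Genes for purine and thymidylate synthesis, where folate carbon is used, mostly stood slightly higher in EVI1+18. Of 14, 11 had an interval wholly above 1 and 2 wholly below 1, beside 33.4% and 32.8% of all tested genes. For 0 the whole interval lay past 2-fold in either direction, beside 5.05% of all tested genes upwards and 5.10% downwards. The median log2 ratio was 0.21. Prps1, which supplies the ribose phosphate for purines, was 1.77-fold higher in EVI1+18 (1.65 to 1.91). Impdh1, 1 of a pair of genes for the first step towards guanine nucleotides, was 2.05-fold lower (1.91 to 2.21) at 1133 counts in EVI1+18, against 2170 in EVI1-WT, while its partner Impdh2 was 1.21-fold higher (1.16 to 1.27).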
